A study of Mus musculus with 10 samples.

Results

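Interferon-stimulated genes are the genes that cells switch on in answer to interferons. A list of 39 of them was followed by name through a deposited table of mRNA per cell, in B cells with and without the histone demethylase LSD1. Of the 39 named genes, 37 were among the 9690 genes of the table, and Ifih1 and Ifi44 were not analysed here. Ddx58, which now carries the symbol Rigi, was kept under its older name.

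The cells were unstimulated B cells sorted from spleens of female C57BL/6J mice, labelled LSD1 knockout (KO) or wild type (WT), with 50000 cells in each polyA-selected, strand-marking library. The 10 libraries were 2 of KO marginal zone B cells (MZB), 3 of WT MZB, 3 of KO follicular B cells (FoB) and 2 of WT FoB. Both cell types were gated on B220+ cells that lacked CD93 and GL7 and also Thy1.1, F4/80 and CD11b, the MZB as CD23- CD21hi CD1d+ and the FoB as CD23+ CD21mid CD1d-. The sources used here name no ages, no driver of the deletion, no deleted exons and no mouse of origin for any library. The p-values therefore cover the spread among libraries alone, and that spread may be technical.

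Interferons bind receptors on the cell surface, and the signal reaches the nucleus through the complex ISGF3, which holds STAT2 and IRF9. ISGF3 binds the interferon-stimulated response element (ISRE), and the gamma activated site (GAS) is the other classical element of interferon-driven genes. The genes they switch on include sensors of viral nucleic acid, the antiviral IFIT, OAS and Mx proteins, GTPases that act on vacuoles of intracellular microbes, and USP18, which damps the receptor's signal. Marginal zone B cells line the border of the white pulp and meet blood-borne antigen there, and follicular B cells recirculate through the follicles.

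The ISRE core was searched as GAAANNGAAA and the GAS core as TTCNNNGAA, on both strands and with overlapping matches counted, in RefSeq promoter windows of the GRCm38.p6 build that run from 250 bases before to 50 bases after a start site. Windows were held for 28 of the 37 genes. Ifi27l2a, Mx1, Mx2, Oas2, Parp14, Parp9, Rtp4, Usp18 and Zbp1 had no match among the windows. An ISRE core lay in a window of 16 of the 28 genes (57.1%), against 1079 of 27025 genes (3.99%) with a window in the whole genome and 3.90% of the genes of the table. More than 1 match in a window was found for 7 of the 28 (25%), against 0.266% of all genes. The GAS core lay in a window of 9 of the 28 (32.1%), against 9.55% of all genes. The stretches around the ISRE core are shown for genes whose values are described below, read along each gene's own strand, with the matched letters in capitals and overlapping matches joined.
Isg15, chr4:156200867-156200904, minus strand: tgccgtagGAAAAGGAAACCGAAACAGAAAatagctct
Oas1a, chr5:120907522-120907553, minus strand: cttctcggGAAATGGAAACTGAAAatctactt
Tgtp1, chr11:48992306-48992331, minus strand: caggaatcGAAACTGAAAcctacctg
Gbp7, chr3:142530275-142530300, plus strand: gtgtgcagTTTCAGTTTCagttctcc
Stat2, chr10:128270268-128270293, plus strand: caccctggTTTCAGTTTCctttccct
Ifit1bl1, chr19:34599433-34599458, minus strand: tctgtaggTTTCATTTTCtgtaagtt
Ifit1bl1, chr19:34602055-34602080, minus strand: tctgtaggTTTCATTTTCtgtaggtt
Ifit3, chr19:34583365-34583390, plus strand: gtggtaagTTTCACTTTCctcttctg
Ifit3b, chr19:34607761-34607786, plus strand: gtggtaagTTTCACTTTCctcttctg
Bst2, chr8:71537579-71537610, minus strand: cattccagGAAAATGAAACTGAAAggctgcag

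Isg15 held 3 overlapping cores, which makes its stretch an uninterrupted repeat of the motif, and Oas1a and Bst2 each held 2. Ifit1bl1 has a window for each of 2 annotated starts, with 1 core in each. Ifit3 and Ifit3b carry the same letters at the site shown, so the genes cannot be told apart by it. The whole Isg15 window, chr4:156200769-156201068 on the minus strand, is given because Isg15 shows the largest difference between the cell types of WT mice among the 37 genes.
Isg15 promoter: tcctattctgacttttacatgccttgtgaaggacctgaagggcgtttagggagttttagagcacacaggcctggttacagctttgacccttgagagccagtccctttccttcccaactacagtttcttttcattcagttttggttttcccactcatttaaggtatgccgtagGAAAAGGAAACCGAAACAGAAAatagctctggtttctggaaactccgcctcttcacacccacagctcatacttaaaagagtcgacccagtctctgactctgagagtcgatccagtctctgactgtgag
The 12 genes whose windows hold no ISRE core include Irf7, Irf9, Oasl1, Oasl2, Cmpk2 and Samhd1. A match is a string of letters and not a shown binding site, and a window without one says nothing of sites elsewhere.

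Several of the genes sit side by side in the genome, and the counting of the authors could share reads between some of them. Ifit1, Ifit2, Ifit3, Ifit3b and Ifit1bl1 lie together on chromosome 19, and the gene model of Ifit1bl1 (chr19:34592888-34662981) spans Ifit3b and Ifit1. Oas1a, Oas2, Oas3, Oasl1 and Oasl2 lie on chromosome 5, and Rsad2 and Cmpk2 are neighbours on chromosome 12. In all, 13 of the 37 gene models overlap another gene, among them Isg15, Usp18, Stat2, Tgtp1, Ifi27l2a, Trim25, Trim30a, Rtp4 and the pair Parp9 and Dtx3l, and the strand setting of the counting is not given. Ifit3 and Ifit3b, Tgtp1 and Tgtp2, and Oas1a and Oas1g are near-identical copies, so the split of reads within each pair is uncertain.

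Recovered whole reads numbered 4161051 to 6711847 per library, of which the 37 genes held 17601 to 28824. The sorted populations carried their labels' markers. By limma, 10 of 10 MZB markers were higher in WT MZB than in WT FoB per cell and after rescaling, against 84.2% and 24.9% of all genes. Of 6 FoB markers, 5 were lower in WT MZB per cell and 6 after rescaling, against 1.67% and 25.1% of all genes. All 7 general B cell markers were in the table. Kdm1a, which encodes LSD1, was at 5.37 and 5.94 mRNA per cell in KO MZB, against 6.37, 8.36 and 7.90 in WT MZB. It was at 2.04, 2.36 and 1.93 in KO FoB, against 5.58 and 4.34 in WT FoB. The groups did not overlap in either cell type, and these gene-level values also count reads outside whatever exons were deleted. The change passed in FoB (log2 change −1.12, limma adjusted p = 4.31e-05) but not in MZB (−0.39, adjusted p = 0.118), where it passed after rescaling (−0.69, adjusted p = 0.000464). In KO MZB, 3 of 6 FoB markers (Fcer2a, Klf2 and Itgb7) were higher than in WT MZB by the same test, also after rescaling. Of all genes, 13.3% were higher per cell and 3.36% after rescaling. On the rescaled values a further FoB marker, Cd55, was lower (−0.51, limma adjusted p = 0.0393), as were 4 of 10 MZB markers, against 1.9% of all genes. All 10 MZB markers had rescaled changes below 0. For 9 of them every KO library was below every WT library, as in 21.3% of all genes. Their summed rescaled level was 309 to 321 in KO MZB and 367 to 402 in WT MZB. Per cell 0 of the 10 passed. The summed rescaled level of the 6 FoB markers was 113 to 114 in KO MZB and 86.2 to 98.3 in WT MZB, against 364 to 386 in KO FoB and 379 to 381 in WT FoB.

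The level is given in a pair of readings. The first is the deposited value, in mRNA per cell, tested with limma on log2(value + 0.3), so that fold changes of low genes are understated. The second is the rescaled value, for which each library was divided by 1 factor, from 0.624 to 1.76, that brings the bulk of genes to a common level. The difference between them matters because the libraries differed in total mRNA. KO MZB held 105590.4 and 121070.6 mRNA per cell over all 9690 genes, against 74815.0, 99800.0 and 92252.8 in WT MZB. KO FoB held 48148.7, 55703.6 and 43561.9, against 56437.7 and 45237.0 in WT FoB. On the deposited scale 91.7% of all genes, and all 37 of the list, were above 0 in KO minus WT MZB, and 53.9% after rescaling. In bulk samples like these, fewer cells with much of an mRNA and less mRNA in each cell cannot be told apart.

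The 37 genes summed to 325.7 and 392.8 mRNA per cell in KO MZB, against 174.9, 261.8 and 248.8 in WT MZB. In FoB they summed to 137.3, 154.6 and 139.6 in KO libraries, against 131.2 and 115.4 in WT libraries. Every KO library lay above every WT library of its own cell type. As a share of all mRNA, which does not depend on the scale, the genes made up 0.309% and 0.324% in KO MZB, against 0.234%, 0.262% and 0.270% in WT MZB. The share was 0.285%, 0.278% and 0.320% in KO FoB, against 0.233% and 0.255% in WT FoB. Here too the KO and WT libraries of a cell type did not overlap, while the MZB and FoB libraries of 1 genotype did.

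**Figure D1:**
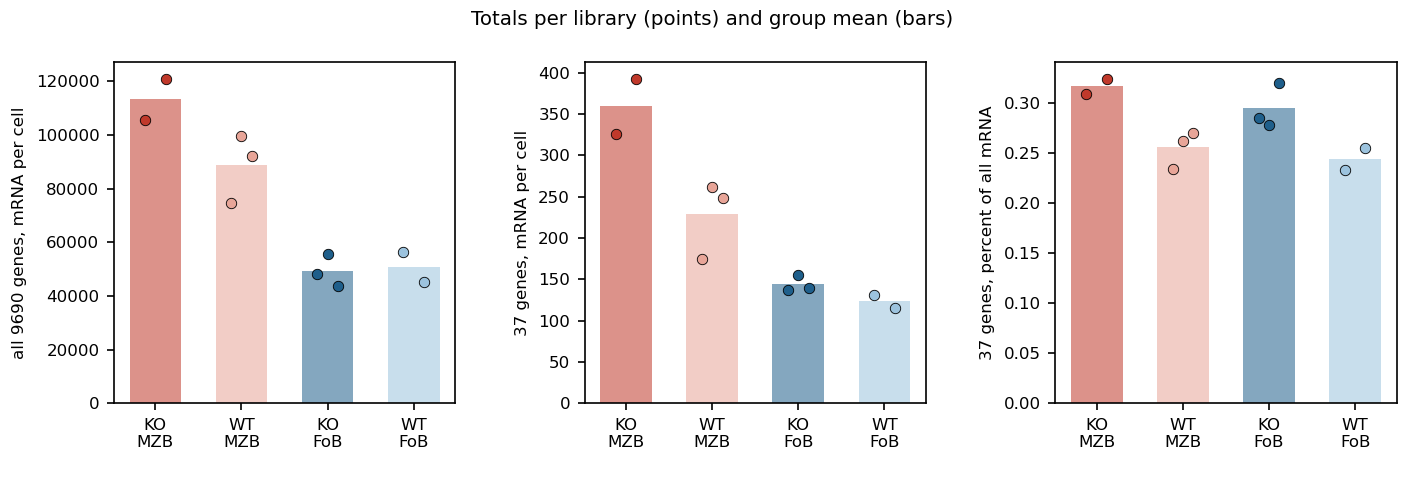
Total mRNA per cell over all 9690 genes (left), summed mRNA per cell of the 37 interferon-stimulated genes (middle) and their percent of all mRNA (right), by library (points) and group mean (bars). The share lies at 0.309% and 0.324% in KO MZB against 0.234% to 0.270% in WT MZB, and at 0.278% to 0.320% in KO FoB against 0.233% and 0.255% in WT FoB.

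In LSD1-deficient marginal zone B cells, per-cell levels of interferon-stimulated genes were higher, with at least 1 gene past the test in every class of the list except the ADP-ribosylation genes. After rescaling, 0 sensors, 0 transcription factors and 0 of the Mx and tetherin genes passed either. Per cell, 24 of the 37 genes rose and 0 fell in KO against WT MZB (limma, adjusted p under 0.05 over all genes). Of all genes in the table, 13.3% rose and 0.702% fell. The median log2 change of the 37 was 0.63, against 0.32 for all genes, and in 31 of the 37 every KO library was above every WT library, as in 56.9% of all genes. After rescaling, 9 rose and 0 fell, where 3.36% of all genes rose and 1.9% fell. The 9 were Usp18, Ifit1bl1, Oas1a, Oasl1, Oasl2, Cmpk2, Samhd1, Tgtp1 and Ifi27l2a. The median rescaled log2 change was 0.31 against 0.02 for all genes, 34 of 37 changes were above 0, and 27 had no overlap and were higher, against 24.3% of all genes. Gbp7 was the 1 gene whose rescaled values were all lower in KO, as were those of 21.3% of all genes.

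These counts lean on single libraries. WT MZB library 1 was the lowest of the WT MZB libraries for 36 of the 37 genes per cell and for 34 after rescaling. KO MZB library 2 was the higher KO library for 36 and 26. These libraries also had the lowest total mRNA per cell of WT MZB (74815.0) and the higher total of KO MZB (121070.6). The same count over all genes was not made, so whether this is particular to the list was not tested. Without WT MZB library 1, 12 genes rose per cell and 4 after rescaling, and without KO MZB library 2 the numbers were 9 and 1. The 9 were Ifit1bl1, Oas1a, Oasl1, Oasl2, Irf7, Isg20, Cmpk2, Tgtp1 and Ifi27l2a, so that Usp18, Samhd1, Irf9 and Zbp1 were among those lost. Without WT MZB library 2, 32 rose per cell, Ddx58, Isg15, Parp9, Dtx3l and Parp14 among them. Without KO MZB library 1, 3 rose after rescaling. Ifit1bl1 was called in each of these fits. The share of all genes called in them was not counted, so whether the list lost calls more than other genes was not tested. Leaving out either KO MZB library leaves a single library in that group.

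**Figure D2:**
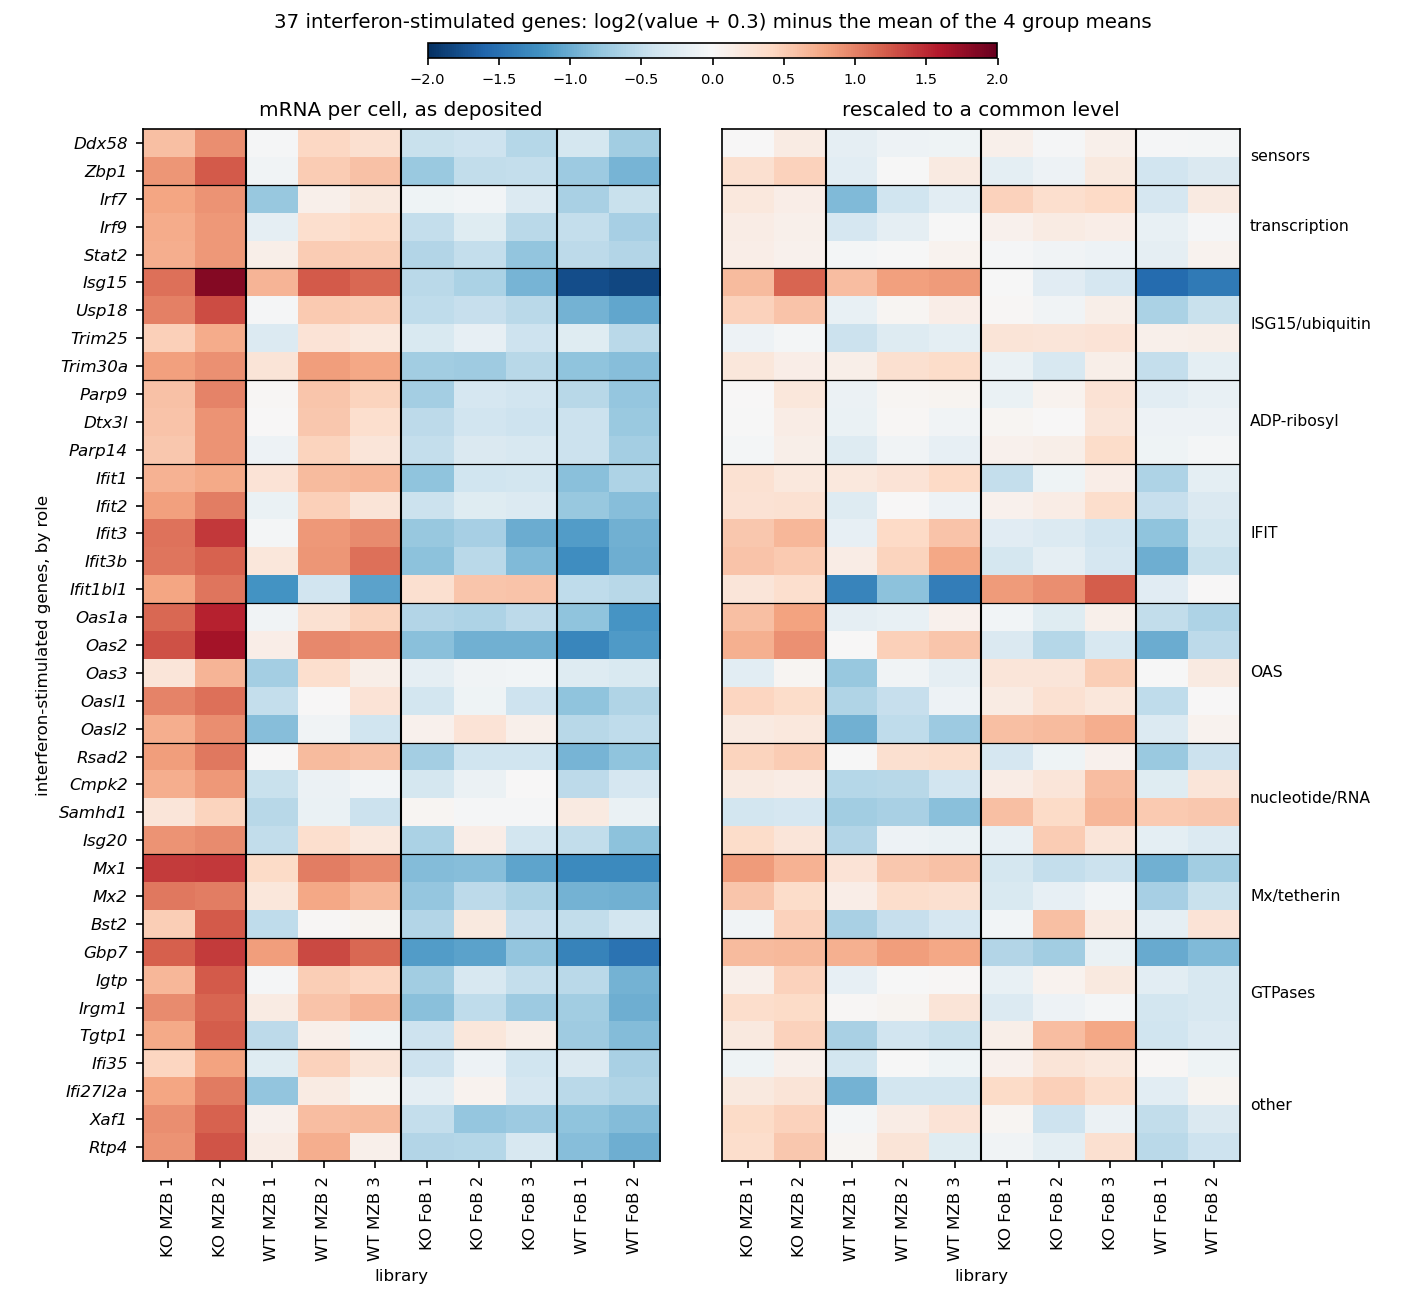
The 37 genes (rows, by role) in the 10 libraries (columns), as log2(value + 0.3) minus the mean of the 4 group means, for mRNA per cell (left) and rescaled values (right). Red is above and blue below that mean: per cell both KO MZB libraries are high for most rows, and after rescaling KO libraries stay above WT libraries of the same cell type in rows such as Ifit1bl1, Oasl2 and Tgtp1.

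The transcription factors of the pathway split in size. Irf7, which drives the amplifying wave of interferon genes, had 8.70 and 9.36 mRNA per cell in KO MZB, against 2.77, 5.26 and 5.61 in WT MZB. The 2 KO libraries were close together and the WT libraries spread widely below them. The log2 change was 1.0 ± 0.20 (SE), with an adjusted p of 0.000139 by limma, and after rescaling it was 0.67 ± 0.18, with an adjusted p of 0.0587. Irf9, the DNA-binding part of ISGF3, had 13.4 and 14.7 in KO MZB, against 6.93, 10.1 and 10.5 in WT MZB. It rose per cell (0.62 ± 0.20, limma adjusted p = 0.0245) but missed the threshold after rescaling (0.29 ± 0.09, adjusted p = 0.0852). Stat2, which carries the transactivation domain of ISGF3, had 23.1 and 25.4 in KO MZB, against 14.9, 19.8 and 19.4 in WT MZB, and passed on neither scale (0.43 per cell, limma adjusted p = 0.102). Of the 2 sensors in the table, Zbp1, which detects Z-form nucleic acid, rose per cell (0.72, limma adjusted p = 0.00771), and the RNA sensor Ddx58 had a log2 change of 0.53 (adjusted p = 0.0513).

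Of the 4 genes of the ISG15 and ubiquitin-like system, Usp18 and Trim25 rose per cell. Usp18, which removes ISG15 from proteins and damps receptor signalling, had 7.42 and 9.18 mRNA per cell in KO MZB, against 3.47, 5.20 and 5.12 in WT MZB. It rose on both scales, by 0.83 ± 0.19 per cell and 0.50 ± 0.10 after rescaling (limma adjusted p = 0.00124 and 0.0202). Isg15, the ubiquitin-like modifier itself, had 3.62 and 6.21 in KO MZB, against 2.62, 3.95 and 3.75 in WT MZB. The groups overlapped, and the test was missed on both scales, with a log2 change of 0.45 ± 0.19 per cell (limma adjusted p = 0.0862) and 0.14 ± 0.16 after rescaling (0.625). Without KO MZB library 1, and without WT MZB library 2, Isg15 passed per cell. Trim25, an E3 ligase that acts on the RNA sensor RIG-I, rose per cell only (0.55, limma adjusted p = 0.0495), and Trim30a did not pass (0.24, adjusted p = 0.319). Parp9, Dtx3l and Parp14, which attach or handle ADP-ribose, had log2 changes of 0.44 to 0.52 per cell and 0.12 to 0.20 after rescaling, and none passed.

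The largest change among the 37 genes lay in the IFIT family, whose proteins bind viral RNA. Ifit1bl1, an Ifit1-like gene, had 3.81 and 4.69 mRNA per cell in KO MZB, against 0.728, 1.52 and 0.822 in WT MZB. Its WT MZB libraries held 41 to 81 reads and its KO MZB libraries 162 and 217. The log2 change was 1.82 ± 0.19 per cell (limma adjusted p = 2.45e-12) and 1.45 ± 0.17 after rescaling (adjusted p = 0.00137). Ifit2 and Ifit3 rose per cell, by 0.73 and 0.66 (limma adjusted p = 0.00487 and 0.0197), whereas Ifit1 and Ifit3b did not pass (0.21 and 0.39, adjusted p = 0.374 and 0.125). Since Ifit1bl1 spans Ifit1 and Ifit3b, the reads of these 3 genes are uncertain.

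Of the OAS genes, whose enzymes make the second messenger that activates RNase L or are catalytically inactive relatives, 4 of 5 rose per cell and 3 of 5 after rescaling. Oasl2 had 3.03 and 3.55 mRNA per cell in KO MZB, against 0.822, 1.62 and 1.23 in WT MZB. Oas1a had 5.57 and 7.43 in KO MZB, against 2.23, 2.99 and 3.30 in WT MZB. Oasl1, known in mice as a translational inhibitor of Irf7, had 6.35 and 6.87 in KO MZB, against 2.10, 3.06 and 3.73 in WT MZB. In all of these every KO library was higher than every WT library. The log2 changes per cell were 1.27 ± 0.19, 1.12 ± 0.19 and 1.11 ± 0.19, in the order Oasl2, Oas1a and Oasl1 (limma adjusted p = 2.98e-07, 5.5e-06 and 8.52e-06). After rescaling they were 0.93, 0.79 and 0.78 (adjusted p = 0.00433, 0.00512 and 0.0207). Oas2 rose per cell only (0.79, adjusted p = 0.00335), and Oas3 did not pass (0.53, adjusted p = 0.0551).

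The genes that act on nucleotides or RNA, Rsad2, Cmpk2, Samhd1 and Isg20, all rose per cell. Cmpk2, a mitochondrial nucleotide kinase next to the gene of the antiviral enzyme viperin, Rsad2, had 3.08 and 3.42 mRNA per cell in KO MZB, against 1.2, 1.59 and 1.68 in WT MZB. It rose by 1.0 ± 0.19 per cell and 0.67 ± 0.16 after rescaling (limma adjusted p = 4.54e-05 and 0.0394). Isg20, an RNA exonuclease, had 3.66 and 3.78 in KO MZB, against 1.21, 2.38 and 2.15 in WT MZB, and rose per cell (0.90 ± 0.20, adjusted p = 0.000756) but not past the threshold after rescaling (0.58, adjusted p = 0.0944). Samhd1, which hydrolyses deoxynucleotides, rose on both scales (0.71 and 0.38, adjusted p = 0.0129 and 0.0306).

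Bst2, the tetherin that holds budding virus to the cell, had 5.74 and 9.76 mRNA per cell in KO MZB, against 2.72, 4.09 and 4.16 in WT MZB. Its rise of 1.0 ± 0.20 (limma adjusted p = 0.000204) was lost without KO MZB library 2 (0.63, adjusted p = 0.227) and after rescaling (0.67, adjusted p = 0.0876). Mx1, a dynamin-like antiviral GTPase whose allele in the C57BL/6 strain is known to be truncated, rose per cell (0.63, adjusted p = 0.0185), and its relative Mx2 did not pass (0.49, adjusted p = 0.0594). Tgtp1, a GTPase of the immunity-related family, had 5.38 and 7.5 in KO MZB, against 2.05, 3.31 and 2.88 in WT MZB. It rose by 1.15 ± 0.20 per cell and 0.82 ± 0.17 after rescaling (limma adjusted p = 6.77e-06 and 0.0226). Of the other GTPases, Igtp and Irgm1 rose per cell only (0.65 and 0.59), and Gbp7 had a log2 change of 0.19 (adjusted p = 0.411).

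Ifi27l2a, which encodes a small membrane protein of the interferon response, had 19.8 and 23.6 mRNA per cell in KO MZB, against 6.44, 12.7 and 11.8 in WT MZB. It rose by 1.10 ± 0.21 per cell and 0.77 ± 0.15 after rescaling (limma adjusted p = 4.57e-05 and 0.0181). Xaf1, a pro-apoptotic partner of XIAP, and Rtp4, a chaperone of membrane receptors, rose per cell only (0.60 and 0.75, adjusted p = 0.0233 and 0.00417). Ifi35 did not pass (0.46, adjusted p = 0.079). After rescaling, leaving out 1 library of the compared groups at a time ended the call of Cmpk2 in 5 of 5 cases, of Oasl1, Tgtp1 and Samhd1 in 4, of Usp18 in 3, of Ifi27l2a in 2 and of Oasl2 and Oas1a in 1, that without KO MZB library 2.

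**Figure D3:**
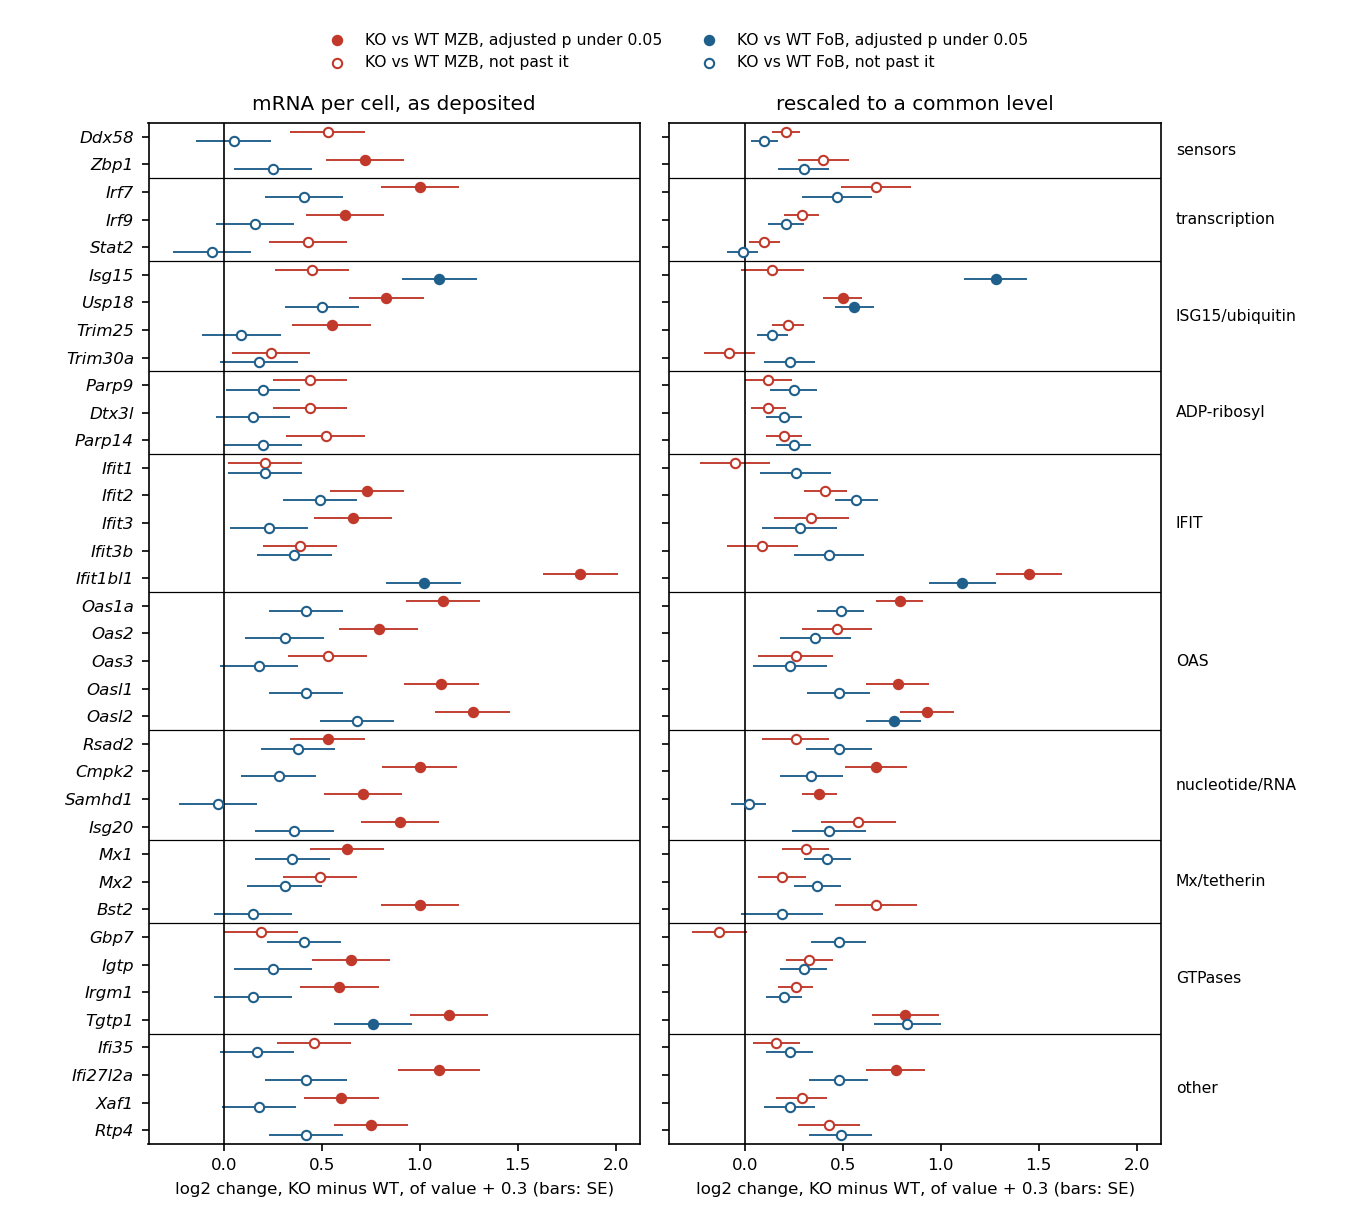
Log2 change of KO minus WT (points, bars are SE) of the 37 genes by role in MZB (red) and FoB (blue), for mRNA per cell (left) and rescaled values (right), with filled points past an adjusted p of 0.05. Per cell 24 MZB and 3 FoB points are filled, and after rescaling 9 and 4, all to the right of 0.

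In follicular B cells fewer genes of the list passed the test. Per cell, Isg15, Ifit1bl1 and Tgtp1 rose in KO against WT FoB and 0 fell, while 0.413% of all genes rose and 0.299% fell. After rescaling, Isg15, Usp18, Ifit1bl1 and Oasl2 rose and 0 fell, with 0.454% of all genes rising and 0.134% falling. The median log2 change of the 37 was 0.28 per cell, against −0.05 for all genes, and 0.34 after rescaling, against −0.01. Changes above 0 numbered 35 of 37 per cell, against 37% of all genes, and 36 of 37 after rescaling, against 48.3%. Groups without overlap and higher in KO numbered 20 of 37 per cell and 28 of 37 after rescaling, against 5.09% and 14.9% of all genes. At an unadjusted p under 0.05, 12 of the 37 stood per cell (3.85% of all genes) and 24 after rescaling (14.6%).

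Isg15 had 0.944, 0.878 and 0.658 mRNA per cell in KO FoB, against 0.229 and 0.216 in WT FoB. Behind these values were 20 to 22 reads in each KO FoB library and 6 in each WT FoB library, so counting error is large in WT FoB. All 3 KO values were well above both WT values. The log2 change was 1.10 ± 0.19 per cell (limma adjusted p = 9.39e-05) and 1.28 ± 0.16 after rescaling (adjusted p = 0.00314), and it passed in every alternative fit and without each library in turn. Isg15 overlaps the gene model Gm46878. Ifit1bl1 had 2.67, 3.18 and 3.21 in KO FoB, against 1.36 and 1.31 in WT FoB, a log2 change of 1.02 ± 0.19 per cell and 1.11 ± 0.17 after rescaling (limma adjusted p = 0.000398 and 0.0112). After rescaling its call was lost without WT FoB library 1 (adjusted p = 0.155) and without WT FoB library 2 (0.0584).

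Tgtp1 had 2.22, 3.63 and 3.35 mRNA per cell in KO FoB, against 1.76 and 1.55 in WT FoB. It passed per cell (0.76 ± 0.20, limma adjusted p = 0.0294) but not after rescaling (0.83, adjusted p = 0.064), and leaving out KO FoB library 2 or 3 or either WT FoB library ended the call (adjusted p of 0.079 to 0.55). Oasl2 had 1.84, 2.14 and 1.87 in KO FoB, against 1.07 and 1.13 in WT FoB. Its log2 change was 0.68 ± 0.19 per cell (limma adjusted p = 0.0698) and 0.76 ± 0.14 after rescaling (adjusted p = 0.0354). Usp18 had 2.38, 2.47 and 2.34 in KO FoB, against 1.68 and 1.55 in WT FoB. The 3 KO values lay within a narrow range above both WT values, with a log2 change of 0.50 ± 0.19 per cell (limma adjusted p = 0.549) and 0.56 ± 0.10 after rescaling (adjusted p = 0.0363). After rescaling, Oasl2 lost its call without any 1 of the 5 FoB libraries, and Usp18 without KO FoB library 1 or 3 or either WT FoB library. The rescaled log2 change of Isg15 was 1.22 without WT FoB library 1 and 1.35 without WT FoB library 2, each of which leaves 1 WT FoB library.

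Irf7 had 4.57, 4.68 and 4.01 mRNA per cell in KO FoB, against 3.01 and 3.49 in WT FoB, a log2 change of 0.41 that missed the threshold (limma adjusted p = 1.0, 0.29 after rescaling). Irf9 had 5.62, 6.63 and 5.37 in KO FoB, against 5.57 and 4.86 in WT FoB, and Stat2 had 9.06, 9.82 and 7.89, against 9.52 and 9.04. For these factors the groups overlapped and the changes were 0.16 and −0.06. After rescaling, Irf9 had 8.29, 8.7 and 8.6 in KO FoB, against 6.99 and 7.67 in WT FoB, without overlap and with a log2 change of 0.21 ± 0.09 (limma adjusted p = 0.317), while Stat2 still overlapped. Samhd1, which rose in KO MZB, had 25.5, 24.6 and 24.4 in KO FoB, against 28.3 and 22.7 in WT FoB.

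**Figure D4:**
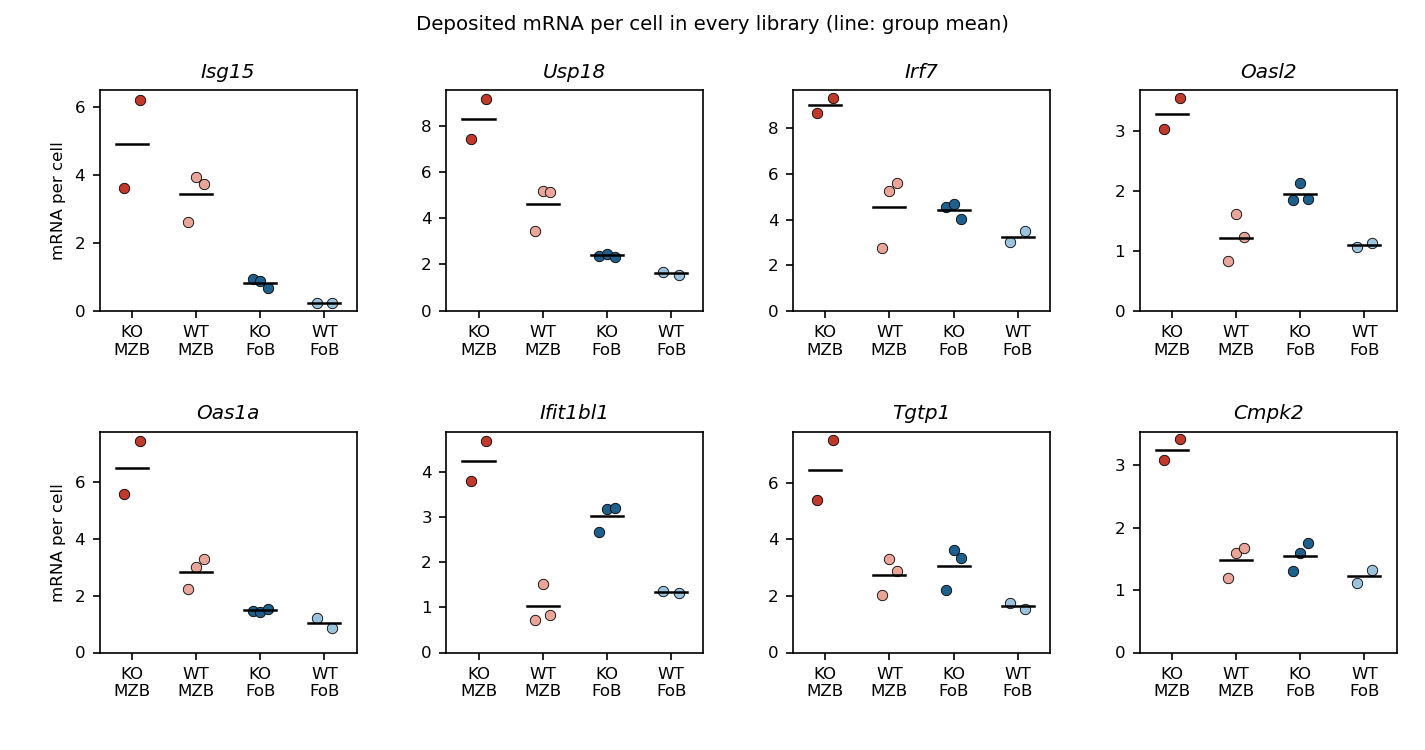
Deposited mRNA per cell in every library (points) with the group mean (line) for 8 of the genes, each axis starting at 0. Ifit1bl1 and Oasl2 are higher in KO than in WT in both cell types, while Isg15 separates KO from WT in FoB (0.658 to 0.944 against 0.216 and 0.229) and overlaps in MZB.

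The 2 KO comparisons share no library. Per cell, Ifit1bl1 and Tgtp1 rose in both, which is 8.33% of the MZB calls and 66.7% of the FoB calls. After rescaling, Ifit1bl1, Oasl2 and Usp18 rose in both, 33.3% of the MZB calls and 75.0% of the FoB calls. Of the 37 genes, 64.9% rose in MZB per cell and 24.3% after rescaling, against 13.3% and 3.36% of all genes. The sharing of calls over all genes was not counted, so whether it is particular to the list was not tested. Whether the change in MZB differed from the change in FoB was tested as an interaction. By limma 0 of the 37 genes passed in either direction on either scale, where 2.02% of all genes passed as higher and 0.32% as lower per cell, and 0.165% and 0.144% after rescaling. At an unadjusted p under 0.05, 10 of the 37 stood per cell (27.5% of all genes) and 3 after rescaling (22.8%). By limma voom on the recovered reads 2 passed, Isg15 and Gbp7, both with a smaller change in MZB than in FoB. For Isg15 the MZB change minus the FoB change was −0.65 ± 0.27 per cell (limma adjusted p = 0.137) and −1.14 ± 0.22 after rescaling (adjusted p = 0.0615). It passed after rescaling without KO FoB library 2.

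Between the cell types of WT mice, the list held genes of both directions once the libraries were rescaled. Per cell 29 of 37 were higher in WT MZB than in WT FoB and 0 were lower, but so were 84.2% and 1.67% of all genes. After rescaling 15 were higher and 6 lower, against 24.9% and 25.1% of all genes, with a median log2 difference of 0.17 against 0.00. The 15 included Isg15, Gbp7, Mx1, Mx2, Oas2, Ifit1, Ifit3, Ifit3b, Rsad2 and Usp18. Of these, Mx2, Ifit1, Ifit3b and Rsad2 are in the table through their MZB levels, since a gene had to reach 0.8 mRNA per cell in at least 2 libraries and they did not in FoB, so the count of 15 depends in part on that entry. The 6 were Samhd1, Ifit1bl1, Oasl2, Cmpk2, Ifi27l2a and Trim25, of which all but Trim25 were among the 9 genes that rose in KO MZB on the same scale. That comparison shares the WT MZB libraries with this one, so the libraries that are low in one are low in the other.

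Isg15 was the gene that differed most between WT MZB and WT FoB. Its 2.62, 3.95 and 3.75 mRNA per cell in WT MZB stood against 0.229 and 0.216 in WT FoB, a log2 difference of 2.82 ± 0.19 per cell and 2.23 ± 0.16 after rescaling (limma adjusted p = 7.38e-07 after rescaling). Gbp7, a guanylate-binding GTPase, had 6.74, 9.61 and 8.41 in WT MZB, against 1.27 and 1.12 in WT FoB (rescaled log2 difference 1.72 ± 0.14, limma adjusted p = 2.05e-06). Mx1 had 3.66, 5.83 and 5.53 in WT MZB, against 0.954 and 0.95 in WT FoB (1.30 ± 0.12, adjusted p = 4.94e-06). None of these overlapped between the cell types. Oas2 had 3.84, 7.09 and 6.88 in WT MZB, against 1.23 and 1.42 in WT FoB (1.11 ± 0.18, adjusted p = 0.000391). Ifit3b had 1.66, 2.78 and 3.30, against 0.408 and 0.554 (1.17 ± 0.18, adjusted p = 0.000382), and Ifit3 had 3.11, 6.15 and 6.46, against 1.33 and 1.51 (0.84 ± 0.19, adjusted p = 0.00367).

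The lower-ranked differences in the same direction were Mx2 (0.82 after rescaling), Trim30a (0.60), Usp18 (0.55) and Xaf1 (0.52), with limma adjusted p-values of 0.000245, 0.00274, 0.00119 and 0.00831. Mx2 had 1.65, 2.57 and 2.32 mRNA per cell in WT MZB, against 0.571 and 0.561 in WT FoB. Trim30a had 13.2, 19.9 and 18.9, against 6.13 and 5.93, and Xaf1 had 2.69, 4.05 and 4.08, against 1.32 and 1.24. At the other end, Samhd1 had 16.9, 22.8 and 18.5 in WT MZB, against 28.3 and 22.7 in WT FoB, and fell by 1.26 on the rescaled log2 scale (adjusted p = 6.46e-07). Ifit1bl1 had 0.728, 1.52 and 0.822 in WT MZB, against 1.36 and 1.31 in WT FoB, and fell by 1.06 on that scale (adjusted p = 0.000371). Without WT FoB library 1 the rescaled differences of Ifit3 (0.62, adjusted p = 0.0535) and Xaf1 (0.42, adjusted p = 0.0827) no longer passed.

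In KO cells, too, genes of the list differed between MZB and FoB in both directions after rescaling. Per cell 36 of 37 genes were higher in KO MZB, against 97.3% of all genes, and 0 were lower, against 0.444%. After rescaling 13 were higher and 4 lower (Samhd1, Ifit1bl1, Oasl2 and Trim25), against 18.1% and 17.1% of all genes. The 13 include Ifit3b, Mx2 and Rsad2, which are in the table through their MZB levels, so this count too depends in part on that entry. Mx1 had 7.71 and 7.80 mRNA per cell in KO MZB, against 1.36, 1.38 and 1.16 in KO FoB, a rescaled log2 difference of 1.19 ± 0.12 (limma adjusted p = 1.51e-05). Oas2 had 8.80 and 11.7, against 1.83, 1.64 and 1.65 (1.21 ± 0.18, adjusted p = 0.000305), and Gbp7 had 8.70 and 10.1, against 1.52, 1.58 and 1.99 (1.12 ± 0.14, adjusted p = 8.72e-05). None of the 3 genes overlapped between the cell types. For Isg15, 3.62 and 6.21 in KO MZB stood against 0.944, 0.878 and 0.658 in KO FoB, a rescaled difference of 1.09 ± 0.16 (adjusted p = 0.00027). Ifit3, Oas1a, Ifit3b, Mx2, Xaf1 and Usp18 were higher in KO MZB too, by 0.90, 0.77, 0.83, 0.63, 0.57 and 0.48 after rescaling, with adjusted p-values between 0.000581 and 0.00661. Xaf1 was not called without KO MZB library 2.

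**Figure D5:**
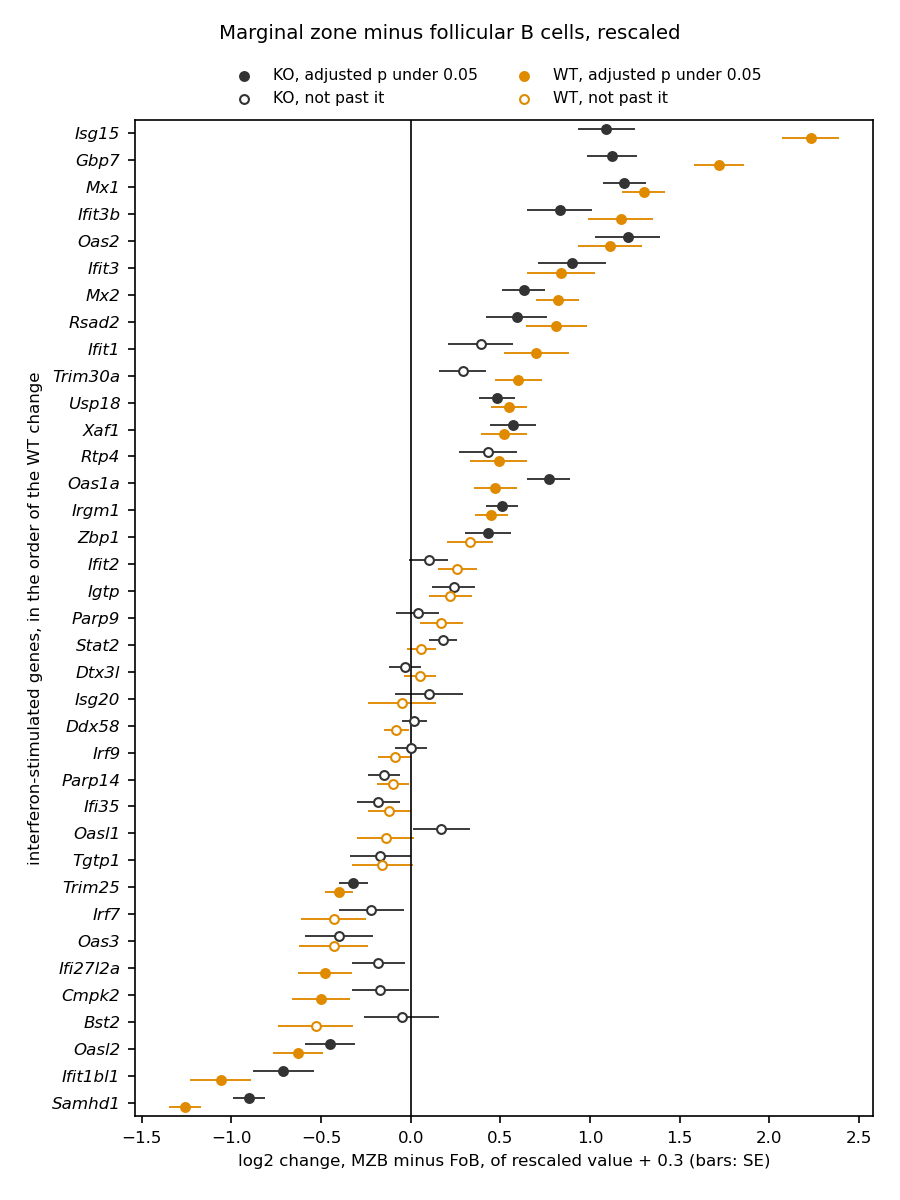
Rescaled log2 difference of MZB minus FoB (points, bars are SE) in KO (dark) and WT (orange) for the 37 genes, in the order of the WT difference, with filled points past an adjusted p of 0.05. Isg15 stands at 1.09 in KO and 2.23 in WT, and Samhd1 at −0.90 in KO and −1.26 in WT.

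The genes were also set out by their promoter letters. In KO against WT MZB, 8 of the 16 genes with an ISRE core and 10 of the 12 without one rose per cell, and 3 and 4 after rescaling. In KO against WT FoB, Isg15, Ifit1bl1 and Tgtp1, the 3 genes that rose per cell, all hold a core. After rescaling, Isg15 and Ifit1bl1, with a core, and Oasl2, without one, were higher, and Usp18 has no window. In WT MZB against WT FoB after rescaling, 9 of the 16 genes with a core were higher and 1 was lower, and of the 12 without a core 1 was higher and 4 were lower. The median rescaled log2 difference was 0.46 with a core and −0.13 without one. Of all genes, 24.9% were higher and 25.1% lower in that comparison. Among the 9, Ifit1, Ifit3b and Rsad2 are in the table through their MZB levels, so this split depends in part on that entry. These splits were made after the values were known and carry no test.

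The level of the interferon machinery itself was looked at in lists outside the 37 genes. Among the receptor and signalling genes of the table, Irf1 and Ifngr2 rose per cell in KO MZB and 0 fell, where 13.3% of all genes rose and 0.702% fell. Irf1, a transcription factor that interferon induces, had 15.3 and 20.8 mRNA per cell in KO MZB, against 8.95, 10.9 and 11 in WT MZB, and also passed after rescaling (0.46, limma adjusted p = 0.014). In FoB 0 of the receptor and signalling genes passed by limma on either scale. Of 8 interferon genes looked for, 0 were among the genes of the table, so the ligands were not analysed here.

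Of 25 other sensing genes, Tmem173, which encodes STING, Dhx58 and Adar rose per cell in KO MZB, a share no higher than the 13.3% of all genes that did. Tmem173 had 22.5 and 25 mRNA per cell in KO MZB, against 12.1, 16.2 and 14.3 in WT MZB (0.74, limma adjusted p = 0.00839, and 0.41 after rescaling, adjusted p = 0.0158). Tlr3, the endosomal receptor of double-stranded RNA, went the other way: it had 3.91 and 4.23 in KO MZB, against 4.78, 5.80 and 5.97 in WT MZB, and fell by 0.70 on the rescaled log2 scale (adjusted p = 0.0131). In FoB Tlr3 had 0.332, 0.390 and 0.483 in KO libraries, against 0.229 and 0.179 in WT libraries. Every FoB value lay under 0.8 mRNA per cell and near the pseudocount of 0.3, so Tlr3 is in the table through its MZB levels. The MZB change minus the FoB change of Tlr3, which uses these low values, passed on both scales (−0.88 and −1.29, limma adjusted p = 0.0476 and 0.022). Rnaseh2a passed as higher in this difference per cell (0.95, adjusted p = 0.0382). Of 13 negative regulators 2 rose per cell in KO MZB, where 13.3% of all genes rose. They were Tnfaip3 (0.67, limma adjusted p = 0.0123) and Nlrx1 (0.56, adjusted p = 0.0335).

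A further list of 74 interferon-stimulated genes outside the 37 had 24 genes that rose per cell and 12 that rose after rescaling in KO MZB, with 0 that fell on either scale, where 13.3% and 3.36% of all genes rose. In KO FoB 2 rose per cell, Ly6c2 and Tgtp2, and 4 after rescaling, these and Ly6a and Cd86, where 0.413% and 0.454% of all genes rose. The median rescaled log2 change of the 74 was 0.16 in both cell types, against 0.02 for all genes in MZB and −0.01 in FoB. Ly6c2, a surface protein of monocytes that lymphocytes also make under interferon, had 2.97 and 5.11 mRNA per cell in KO MZB, against 0.0882, 0.237 and 0.379 in WT MZB, where 2 to 6 reads lay behind each value. In FoB it had 2.63, 2.15 and 3.01 in KO libraries, against 0.791 and 0.237 in WT libraries. It rose in both, by 3.01 and 1.91 per cell (limma adjusted p = 2.22e-21 and 7.47e-11). No WT library reached 0.8 mRNA per cell for Ly6c2, so it is in the table through its KO levels. Its rise, and the counts of this list that include it, depend in part on that entry. Ube2l6, the enzyme that passes ISG15 to its targets, had 1.63 and 2.48 in KO MZB, against 0.688, 0.684 and 0.803 in WT MZB (1.18, adjusted p = 1.58e-06). Oas1g and Tgtp2, the near copies of Oas1a and Tgtp1, rose in KO MZB by 1.22 and 1.15 per cell.

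Markers of other cells moved with the genotype in part. Of 11 macrophage and monocyte markers, 3 were in the table, and their summed level was 7.60 to 10.4 mRNA per cell in KO MZB and 2.65 to 4.43 in WT MZB, and 3.54 to 4.11 in KO FoB and 1.12 to 1.92 in WT FoB. Ly6c2, in the table through its KO levels, and Itgam, which encodes CD11b, rose in KO MZB, as did 13.3% of all genes per cell. Cd68 did not pass. Of these 3 genes, 1 rose per cell in KO FoB and 2 after rescaling, where 0.413% and 0.454% of all genes did. In the interaction 2 passed as higher per cell and 0 after rescaling, against 2.02% and 0.165% of all genes. Csf1r, Adgre1, Lyz2, C1qa, C1qb, Mertk, Fcgr1 and Ccr2 were not among the genes of the table. Of 7 dendritic cell markers, Flt3 and Cst3 were in the table and rose in KO MZB, and Zbtb46, Itgax, Xcr1, Clec9a and Batf3 were not in it. Flt3 had 1.92 and 2.33 in KO MZB, against 0.261, 0.441 and 0.346 in WT MZB, and rose in KO FoB as well (0.88, limma adjusted p = 0.00273). The summed level of Flt3 and Cst3 was 19.5 to 26.4 in KO MZB and 10.6 to 13.9 in WT MZB, and 10.3 to 15.5 in KO FoB and 10 to 12.6 in WT FoB. Of 11 markers of plasmacytoid dendritic cells, the chief makers of type I interferon, 5 were in the table, and Siglech and Ccr9 were not in it. The summed level of the 5 was 228 to 280 mRNA per cell in KO MZB and 153 to 218 in WT MZB. In FoB it was 92.6 to 128 in KO libraries and 87 to 114 in WT libraries. After rescaling it was 148 to 159 in KO MZB and 135 to 150 in WT MZB. The rescaled sum was 148 to 168 in KO FoB and 137 to 143 in WT FoB. Of the 5, Pacsin1 rose per cell (0.54, limma adjusted p = 0.0433) and Lair1 fell after rescaling (−0.67, adjusted p = 0.0183). The T cell marker Lck and the natural killer cell marker Il2rb also rose in KO MZB (0.87 and 0.84, limma adjusted p = 0.00064 and 0.000846), while the natural killer cell marker Prf1 did not pass (−0.25 after rescaling, adjusted p = 0.464) and Cd3e, Cd4, Cd8a, Ncr1 and Nkg7 were not in the table. Of 5 plasma cell markers 2 were in the table and did not pass, and of 6 neutrophil markers 0 were in it. The part of these markers, and of the FoB and MZB markers given above, in the changes of the 37 genes was not tested.

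All 37 genes reached 0.8 mRNA per cell, a floor that each gene of the table reached in at least 2 libraries, in 2 or more WT MZB libraries, so none entered the table through KO MZB alone. On the FoB libraries by themselves 33 of the 37 would have reached it, and 4, Ifit1, Ifit3b, Rsad2 and Mx2, would not. Isg15 reached it in 2 KO FoB libraries and in 0 WT FoB libraries. With the 24 genes whose models overlap no other gene, a choice made after the values were seen, 18 rose per cell in KO MZB and 5 after rescaling. In KO FoB the numbers were 0 per cell and 1 after rescaling. Of all genes, 13.3% rose per cell and 3.36% after rescaling in KO MZB, and 0.413% and 0.454% in KO FoB.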

How the data were processed

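The authors deposited a signal for each gene in each library, which they call mRNA per cell. STAR and the mm10 build were used, per the submitters' processing notes. For the counter, the annotation, the strand setting and the factor to molecules per cell, the sources used here give nothing. Of 9690 Entrez identifiers, 9681 matched RefSeq symbols. For each gene a step that stands for 1 read was found (largest deviation from whole reads 2.9e-05), and this step fell with exon length (Spearman rho −0.82 across 9255 genes, which are not independent). Recovered reads gave the depth, between 4161051 and 6711847 in a library, the median gene having 184 to 319, and served limma voom. No pair of libraries was identical, and 0 columns stayed unassigned.

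The test was limma (version 3.58.1, R 4.3.3), applied to log2(value + 0.3) in 1 fit over all 10 libraries and 4 groups with a variance trend, two-sided, adjusted by Benjamini-Hochberg over all genes, at 0.05. The rescaled values come from trimmed means of log-ratios, 1 factor a library (trims 0.3 and 0.05). Scripts were tested on simulated data, and ran in Python 3.11.15 with pandas 2.3.3, numpy 2.4.6 and matplotlib 3.10.9. The genes and lists were chosen with earlier results of these data known. Full statistics went to at most 10 genes per comparison with the smallest p among those that passed on either scale with a mean of at least 10 reads in the higher group, to Irf7, Irf9, Stat2, Isg15 and Usp18, and to up to 4 genes of each other list that passed in a KO comparison. Values given for other genes of the 37 account for every member. Alternatives were pseudocounts of 0.1 and 1, a mean of at least 1 mRNA per cell, rescaled and median-ratio scales, the compared groups alone, no trend, library weights, a replicate block, voom, leaving out each library, and, added after the data were seen, leaving out genes with an overlapping model. Of the receptor and signalling genes, 1 is not reported here.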

Additional observations from a re-analysis of the deposited data

How the results depend on the processing

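Without 1 library at a time, genes called higher in KO MZB numbered 9 to 32 per cell and 1 to 11 after rescaling, and in KO FoB 2 to 4 and 1 to 4. Higher in WT MZB than WT FoB were 25 to 33 and 11 to 17, and lower 0 to 2 and 4 to 8. In KO cells these were 34 to 36 and 10 to 16, and 0 and 1 to 5. The interaction gave 0 to 3 higher per cell and 0 to 1 lower after rescaling, and 0 genes fell in either KO comparison. Kdm1a ran from −0.71 to −0.31 in MZB, −1.29 to −0.95 in FoB and 0.39 to 0.90 for their difference, over both scales. Rescaled, median-ratio and voom fits called 9, 9 and 17 higher in KO MZB, 4, 4 and 6 in KO FoB, 15, 15 and 16 higher and 6, 6 and 9 lower in WT MZB against WT FoB, and 13, 13 and 15 higher and 4, 4 and 4 lower in KO MZB against KO FoB. They gave Kdm1a −0.69, −0.69 and −0.73 in MZB, and voom gave a difference of 0.44 and 2 genes lower in the interaction. A pseudocount of 1 gave 2 higher there (Bst2 and Oas1a), and no variance trend gave 1 gene (Samhd1) lower in WT MZB against WT FoB. With genes that overlap another left out, so fewer genes counted, 0 were higher in KO FoB, 18 in WT MZB and 23 in KO MZB against FoB. Of all genes, 0.413%, 84.2% and 97.3% were higher per cell in the same comparisons. Each comparison shares only 2 replicate numbers and no label ties them to a mouse or day, so the numbers are not taken to pair the libraries. The correlations of deviations were 0.21 and 0.16 for KO against WT MZB, 0.05 and −0.06 for KO against WT FoB, −0.01 and −0.14 for WT MZB against WT FoB, and 0.12 and 0.11 for KO MZB against KO FoB. With a replicate block 17 genes were higher in KO MZB per cell and 11 after rescaling, without Samhd1 on either scale and without Irf9, Irgm1, Mx1, Rsad2, Trim25 and Xaf1 per cell, 2 and 4 in KO FoB, 15 higher and 9 lower after rescaling in WT MZB against WT FoB, 15 and 4 in KO cells, and Kdm1a was −0.68 after rescaling in MZB. The interaction cannot be fitted on 2 groups alone. The library weights stopped short of their convergence tolerance in some steps. Other causes of these shifts were not tested. Groups of 2 or 3 libraries and counts as low as 6 reads for Isg15 and 2 for Ly6c2 limit what can be seen.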
